A study of Arabidopsis thaliana with 16 samples.

Results

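Flower buds of wild-type Arabidopsis thaliana (Columbia, Col-0) grown in low light were compared with buds grown in normal light over every gene with at least 1 CPM (counts scaled to the library total) in at least 4 of the 8 Col-0 libraries. This rule kept 19992 of 33681 genes. Both groups were unmanipulated Col-0 plants grown at 22 °C by the labels (the published methods give a slightly lower temperature) under 16 h days of fluorescent light. From the onset of flowering 1 group stayed under a nominal 200 µmol/m2/s of photosynthetic light, and the other was shaded with netting to a nominal 50 µmol/m2/s. RNA came from whole buds that had not reached the first pollen mitosis, holding anthers of stages 1 to 10, with 4 biological replicates per group, and was sequenced after poly-A selection. A further 8 libraries came from bhlh89,91, a double mutant with T-DNA insertions in a pair of tapetal transcription factor genes, under the same light regimes. Their response is described only in the last comparison, but they share the fit and its estimate of the spread with the Col-0 libraries, and a fit of the 8 Col-0 libraries alone gave 1648 genes by the stricter call in place of 1619. A pooled bud holds sepals, petals, carpels and anthers of many stages, so fewer cells of a type and less RNA per cell cannot be told apart, and the time of day at harvest is not given in the sources used here.

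The 8 Col-0 libraries held 21961751 to 23346158 estimated counts each. Libraries of the same light regime correlated at 0.977 to 0.992 on the log2 CPM scale and libraries of different regimes at 0.922 to 0.948. The first principal component, which separated the light regimes, held 76.8% of the variance. The normal light library in column 3 of the deposited table stood apart: it was the highest normal light library for 425 of the 1116 genes called higher in low light by the stricter rule given below (38.1%), against 15.6% to 27.7% for the other 3 columns. For 42 of those genes it was at least 3 times the next normal light library and at least 1 TPM. Without it there were 1652 DEGs in place of 1619. Sums over the floral organ identity genes, which mark the 4 whorls of the flower, were 1253 to 1367 TPM (transcript abundance scaled by length and library total) in normal light and 1219 to 1292 TPM in low light. These sums hide changes in both directions: at an adjusted p under 0.05 (test given below) 6 of 12 members rose and 4 fell. The 6 rises were 2 to 5 when 1 library was left out. On the log2 scale AP3, AP1, AGL6 and PI changed by -0.60, -0.30, -0.36 and -0.16. Among the rises SHP1 and STK changed by 0.83 and 0.75. Of 22 genes of maturing pollen 7 were measured, with summed levels of 19.99, 20.5, 41.7 and 17.5 TPM in normal light columns 1 to 4, highest in column 3, and 28.9 to 36.4 TPM in low light. Of 7 sperm lineage genes 2 were measured.

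Plants read light both as a signal, through phytochromes, cryptochromes and ZEITLUPE-type receptors, and as energy, through the sugars that photosynthesis delivers. Flower buds are sinks: they import sucrose, split it at the cell wall and take up the hexoses, and they slow division and expansion when sugar runs short. Strong light in turn induces early light-induced proteins, flavonoids and surface waxes, which protect the tissue, and the circadian clock sets the daily phase of all of these.

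A differentially expressed gene (DEG) was called at an adjusted p under 0.01 with a log2 fold change (log2FC, low over normal light) of at least 1 in size, and smaller changes at an adjusted p under 0.05, both taken from the quasi-likelihood F test of edgeR, with p-values adjusted across all 19992 genes by the Benjamini-Hochberg method. DEGs numbered 1619 (8.1% of genes tested), of which 1116 rose (5.58%) and 503 fell (2.52%). At an adjusted p under 0.05, 5937 genes rose (29.7%) and 6035 fell (30.2%), so that 59.9% passed in either direction, and the median log2FC over all genes tested was -0.01. These shares are the background against which the counts of gene groups below are read. The 23 male fertility genes tabulated in the study, each given there as higher in low light in Col-0, were left out of every gene group. In the rest of the text, rose and fell refer to an adjusted p under 0.05, and DEG to the stricter call.

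The evening genes of the circadian clock, which repress the morning genes and set flowering time, all rose. All 8 tested members passed, 7 of them as DEGs, with a median log2FC of 2.13. Before the values, the promoter sequences that mark this group are shown. Of the 8 genes, 4 carried the evening element AAAATATCT, the site that the morning factors CCA1 and LHY bind, within 500 bases before the annotated gene start on either strand, against 4.44% of 27443 promoters, 8.88% of those of DEGs that rose and 5.79% of those of DEGs that fell (RefSeq annotation of TAIR10.1). The windows of 30 bases around it are written 5′ to 3′ with the element in capitals. They lie at chr5:24674802-24674831 (minus strand) for TOC1, chr3:17182979-17183008 (plus strand) for PCL1, chr5:24003835-24003864 (minus strand) for BOA and chr5:8358819-8358848 and chr5:8358714-8358743 (plus strand) for the 2 matches of PRR5.
TOC1: tcatcttggagAAAATATCTcatgatattt
PCL1: tagaagatctAAAATATCTagctaactcgt
BOA: ctagataatctAAAATATCTtttacccgca
PRR5, farther from the gene start: ttggatttgaaAAAATATCTagtagaattg
PRR5, nearer to the gene start: gtggagaaaagAAAATATCTagaaaaaatc

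PRR5 (AT5G24470), a pseudo-response regulator that represses CCA1 and LHY, stood at 3.15, 3.13, 3.96 and 4.62 TPM in normal light and at 65.9, 66.3, 66.9 and 79.5 TPM in low light. Its groups did not overlap, as was so for 56.2% of all genes tested, and the change of 4.23 ± 0.13 (log2FC ± SE, adjusted p = 1.7e-11) was 18.8-fold in mean TPM. FKF1 (AT1G68050), an evening-phased blue light receptor counted here with the photoreceptors, which marks CONSTANS repressors for degradation in the afternoon, was at 0.449 to 0.779 TPM in normal light and at 23, 23.59, 25.2 and 33.0 TPM in low light, a log2FC of 5.52 ± 0.17 (adjusted p = 1.7e-11). ELF4 (AT2G40080), a subunit of the evening complex, was at 0.710, 0.979, 2.19 and 0.827 TPM in normal light and at 27.8, 21.1, 31.3 and 38.3 TPM in low light. All 4 low light libraries lay far above the normal light ones for both genes, and the log2FC of ELF4 was 4.63 ± 0.32 (adjusted p = 1.96e-08). Smaller rises were those of TOC1 (21.5 ± 1.53 to 76.1 ± 7.79 TPM, mean ± SD, n = 4), PCL1 (LUX, the DNA-binding subunit of the evening complex; log2FC 1.91 ± 0.11), PRR3 (2.61 ± 0.14) and GI (GIGANTEA, the partner of FKF1; 13.2 ± 0.71 to 34.3 ± 1.94 TPM).

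The morning genes did not move as a group: of 8 tested, 2 rose and 4 fell, with a median log2FC of -0.56. LHY (AT1G01060), a morning repressor of the evening genes, was at 35.9, 30.8, 22.3 and 22.7 TPM in normal light and at 2.98, 3.08, 2.98 and 2.66 TPM in low light, with no overlap and a log2FC of -3.24 ± 0.23 (adjusted p = 2.55e-08). Its close relative CCA1 was at 17.1, 11.8, 11.6 and 11.8 TPM in normal light and at 8.23 to 9.58 TPM in low light. The groups did not overlap, but the log2FC of -0.56 ± 0.26 did not pass (adjusted p = 0.075). RVE8, LNK1 (AT5G64170) and LNK2 (AT3G54500), which activate evening genes, fell by 0.60, 0.57 and 0.46 on the log2 scale. RVE1, a morning factor that feeds the clock into auxin synthesis, rose from 11.2 ± 2.2 to 40.5 ± 3.08 TPM (log2FC 1.86 ± 0.31), and PRR7 rose by 0.52 ± 0.06. Whether both groups were harvested at the same hour is not given in the sources used here.

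**Figure D1:**
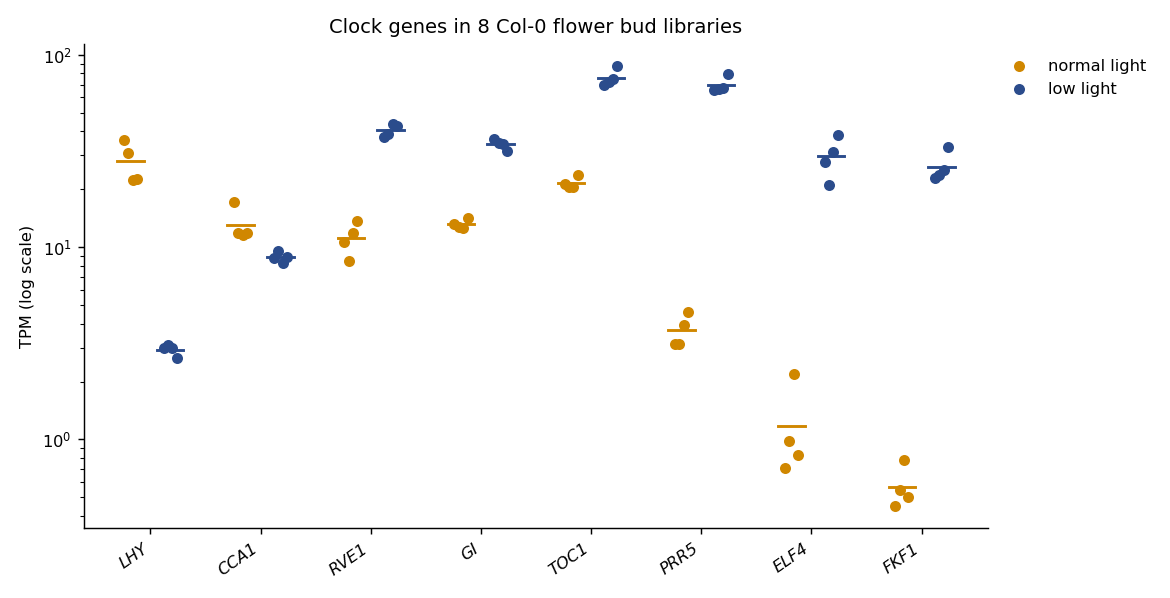
TPM on a log axis of 8 clock genes in the 4 normal light and 4 low light Col-0 libraries, each point a library and each bar a group mean. LHY lies lower in low light (22.3 to 35.9 against 2.66 to 3.08 TPM), whereas PRR5, ELF4 and FKF1 lie at least 9 times higher in every low light library than in any normal light library.

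Genes that plants switch on when sugar runs short rose throughout. All 15 tested members of the sugar starvation list, which includes the enzymes that break down branched-chain amino acids for fuel, rose, and 10 were DEGs, with a median log2FC of 1.55. AT2G33830, annotated as a dormancy-associated protein, was at 37.7, 38.2, 58.6 and 90.4 TPM in normal light and at 3616, 3255, 3888 and 4502 TPM in low light. Its low light level placed it among the more abundant messages of the bud, and the log2FC was 6.08 ± 0.48 (adjusted p = 6.98e-08). DYL1, its paralog, was at 227, 254, 308 and 574 TPM in normal light and at 1811, 1758, 2048 and 2338 TPM in low light, again without overlap (log2FC 2.54 ± 0.29). Normal light column 4 was the highest of its group for both genes.

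ASN1 (AT3G47340), the dark-induced asparagine synthetase that stores nitrogen when carbon is scarce, was at 123, 116, 125 and 181 TPM in normal light and at 522, 514, 548 and 571 TPM in low light (log2FC 1.99 ± 0.23, adjusted p = 2.58e-06). BCAT-2 (AT1G10070), which removes the amino group of leucine, isoleucine and valine in mitochondria, went from 7.39 ± 0.998 to 61.0 ± 5.45 TPM, a log2FC of 3.05 ± 0.19 (adjusted p = 8.39e-09). Next in the same route, isovaleryl-CoA dehydrogenase (IVD) rose by 1.04 ± 0.07 and the subunits of methylcrotonyl-CoA carboxylase, MCCA and MCCB, by 1.62 ± 0.14 and 0.44 ± 0.05. The TATCCA element, a sugar response motif described in rice amylase promoters, was found in the 500 bases before 7 of the 15 genes (46.7%). Its share was 25.5% of all promoters, 32.6% of those of DEGs that rose and 23.8% of those of DEGs that fell.

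Trehalose phosphate synthases, which include the catalytic TPS1 and the regulatory class II proteins, were mostly higher: 6 of 8 rose, 4 of them as DEGs, and TPS5 fell (log2FC -0.72 ± 0.10). TPS8 was at 24.9, 20.5, 22.5 and 30.6 TPM in normal light and at 143, 138, 119 and 134 TPM in low light, a log2FC of 2.44 ± 0.22. TPS11 (1.67 ± 0.15), ATTPS6 (1.22 ± 0.15), TPS9 (1.19 ± 0.13) and TPS10 (0.99 ± 0.09) made up the rest of the values given by the naming rule.

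Of 25 tested sugar transporters and wall invertases, 13 rose and 6 fell, with 8 and 2 DEGs. STP1 (AT1G11260), a hexose importer of the plasma membrane that sugar represses, was at 50.1, 48.1, 49.8 and 72.8 TPM in normal light and at 382, 334, 345 and 343 TPM in low light. STP2 (AT1G07340), a hexose importer of young microspores, was at 13.4, 18.4, 14.8 and 6.53 TPM in normal light and at 178, 194, 148 and 155 TPM in low light. For both importers every low light library lay at least 4 times above every normal light one, and the log2FC values were 2.67 ± 0.28 (adjusted p = 8.97e-07) and 3.68 ± 0.36 (adjusted p = 4.88e-07). cwINV4, a cell wall invertase of nectaries and anthers, rose from 2.94 ± 0.92 to 31.8 ± 3.72 TPM, and STP4 and the sucrose exporter SWEET12 rose by 1.74 ± 0.19 and 1.19 ± 0.15. Starch genes were split, with 12 of 27 up and 10 down. The small subunit of ADP-glucose pyrophosphorylase, ADG1, fell from 218 to 135 TPM, and the phosphorylase PHS2 and the phosphoglucan water dikinase PWD, which act in starch breakdown, rose by 0.79 ± 0.07 and 0.80 ± 0.06.

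The early light-induced proteins, which bind free pigment in the thylakoid under light stress, both fell, ELIP1 furthest of all ranked genes. ELIP1 (AT3G22840) was at 32.0, 26.5, 20.9 and 11.6 TPM in normal light and at 0.335, 0.757, 0.715 and 0.914 TPM in low light, a log2FC of -5.03 ± 0.56 (adjusted p = 1.99e-06), and ELIP2 went from 12.6 ± 2.52 to 0.714 ± 0.28 TPM (-4.12 ± 0.36). Neither gene had a low light library near the normal light range. The wider photoprotection list did not follow them: 3 of its 12 tested members rose and 6 fell. The G-box CACGTG, a site of HY5 and of phytochrome interacting factors, lay in the 500 bases before 4 of the 12: ELIP1, OHP, LIL3:2 and BETA-OHASE 2. It lay in 9.35% of all promoters, 11.7% of those of DEGs that rose and 13% of those of DEGs that fell. The motif did not follow the direction of change: OHP fell (log2FC -0.46), LIL3:2 rose (0.17), and ELIP2 held no match. The ELIP1 window is shown because that gene moved most, at chr3:8085718-8085747 (minus strand), with the G-box in capitals.
ELIP1: tactatatgattCACGTGtaatgtttttga

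Flavonoid synthesis, which builds ultraviolet screens, was lower: 12 of 15 tested enzymes fell and 1 rose, 6 of the falls being DEGs, with a median log2FC of -0.85. TT7 (AT5G07990), the hydroxylase that turns kaempferol precursors into quercetin precursors, was at 39.8, 45.4, 39.5 and 24.8 TPM in normal light and at 7.78, 6.16, 7.05 and 6.97 TPM in low light (log2FC -2.41 ± 0.15, adjusted p = 7.3e-09). FLS1, flavonol synthase, fell from 241 to 97.1 TPM, F3H from 200 to 86.8 TPM and TT5, chalcone isomerase, from 88.8 to 40.5 TPM. PAL1, at the entry to the phenylpropanoid pathway, rose from 68.0 ± 21.7 to 135 ± 6.90 TPM. Of 8 regulators tested, 5 fell: MYB12, MYB11 and MYB111, which activate flavonol genes, the repressor MYB4, and EGL3, which activates anthocyanin genes. MYB12 was at 10.7 to 11.4 TPM in normal light and at 4.14 to 4.87 TPM in low light. MYBL2, a repressor of anthocyanin genes, rose from 17.7, 13.3, 18.17 and 30.1 TPM to 144, 138, 157 and 157 TPM (log2FC 2.91 ± 0.25, adjusted p = 1.46e-07).

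**Figure D2:**
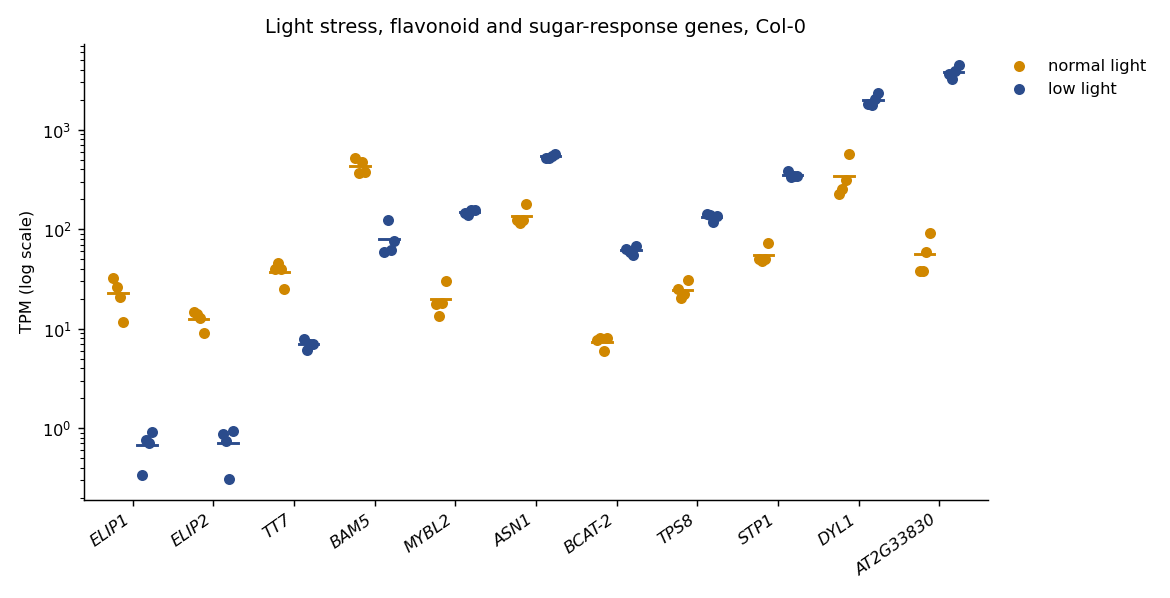
TPM on a log axis of 11 light stress, flavonoid and sugar response genes in the 4 normal light and 4 low light Col-0 libraries, each point a library and each bar a group mean. ELIP1, ELIP2, TT7 and BAM5 lie lower in every low light library and the other 7 genes lie higher, AT2G33830 from 37.7 to 90.4 TPM up to 3255 to 4502 TPM.

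Photosynthesis genes fell by small amounts. None of the 22 photosystem core subunits rose and 16 fell, with a median log2FC of -0.24 and no DEG. The largest falls named were PsbS (NPQ4), which dissipates excess energy, from 752 to 419 TPM, and PSAH2 from 1082 to 628 TPM. In the light harvesting antenna 11 of 21 fell and 3 rose, LHCB4.3 by -1.14 ± 0.11, while LHB1B1, a major antenna protein, rose by 1.11 ± 0.28. Members of this family are close copies and their counts are uncertain. Of the Calvin cycle enzymes 12 of 19 fell, among them FBA2 (651 to 416 TPM) and SBPASE (181 to 118 TPM), and 2 rose, CP12-1 and CP12-3, small proteins that inactivate the cycle in darkness. Chlorophyll synthesis had 10 of 17 lower, such as CHLI1 (224 to 143 TPM), and 4 higher, including the protochlorophyllide reductases PORA (3.72 to 7.21 TPM) and PORB (404 to 751 TPM).

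Photoreceptors moved up more often than down, 9 of 14 rising and 2 falling. PHYA, the phytochrome that accumulates in darkness, rose from 35.1 to 59.8 TPM, and CRY2, the cryptochrome that strong blue light destroys, from 81.3 to 134 TPM, while PHYB fell from 35.1 to 26.6 TPM and CRY3 from 20.6 to 13.2 TPM. Shade signalling genes were divided. HAT2 was at 21.7, 21.0, 24.8 and 21.9 TPM in normal light and at 147, 137, 122 and 125 TPM in low light (log2FC 2.57 ± 0.14), and PIF4, a growth-promoting factor that phytochrome inactivates, rose by 1.83 ± 0.13. The classic shade markers HB-2, PIL1 and HFR1 fell by 0.97, 0.57 and 0.41 on the log2 scale. In all 8 of 17 rose and 5 fell.

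DNA replication genes fell without exception. All 18 tested members, which license origins, synthesize nucleotides and assemble chromatin in S phase, were lower in low light, 4 of them as DEGs, with a median log2FC of -0.82. Promoters of 7 of the 18 held the E2F site TTTCCCGC, the element of the E2F factors that open S phase, within 500 bases of the gene start, against 1.01% of all promoters, 0.764% of those of DEGs that rose and 1.65% of those of DEGs that fell. Windows are shown for the 3 helicase subunits that hold it, at chr1:16970184-16970213 (plus strand), chr2:3527501-3527530 (minus strand) and chr5:18010695-18010724 (plus strand), with the site in capitals.
MCM2: caaattggcgccaataTTTCCCGCctaatc
MCM5: cggcccatcagTTTCCCGCcacattgttcc
MCM6: tcctctaacatTTTCCCGCtaaaaagtata

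PCNA1 (AT1G07370), the sliding clamp of DNA polymerase, was at 66.9, 76.7, 71.8 and 68.3 TPM in normal light and at 29.1, 26.1, 28.0 and 29.9 TPM in low light, a log2FC of -1.32 ± 0.07 (adjusted p = 2.06e-09). TSO2 (AT3G27060), a ribonucleotide reductase subunit, was at 126, 132, 139 and 110 TPM in normal light and at 53.4, 46.8, 49.1 and 51.6 TPM in low light. The replicates of each group lay close together for both, and low light was below normal light in every pair of libraries. MCM5, a helicase subunit, fell from 55.9 ± 1.6 to 31.4 ± 0.52 TPM, and MCM3, MCM6 and MCM4 by 0.98, 0.88 and 0.74 on the log2 scale.

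Histones and mitotic genes fell less. Of 19 tested core histone genes 16 fell and 1 rose, with a median log2FC of -0.49 and no DEG. HTA10, a replicative histone, was at 343, 376, 352 and 378 TPM in normal light and at 208, 190, 191 and 197 TPM in low light. HTA9, which encodes the H2A.Z variant deposited outside S phase, rose from 310 to 438 TPM. Histone coding sequences are near copies of each other, so reads may be shared among members. Of 20 mitotic genes 17 fell and none rose (median log2FC -0.48), led by the Aurora kinase AUR2 (43.8 to 25.9 TPM) and the kinesin HIK (43.1 to 25.6 TPM), which builds the cell plate. Of 29 meiotic genes 16 fell and 1 rose, with a median log2FC of -0.26. The recombinase DMC1 fell from 37.3 to 21.3 TPM and the meiotic cyclin SDS from 7.70 to 4.62 TPM. Sums over the meiotic genes were 264 to 279 TPM in normal light and 223 to 234 TPM in low light. In the inflorescence and floral meristem 7 of 9 fell, with KNAT1 (BREVIPEDICELLUS) dropping from 40.6 to 17.59 TPM. The count was 4 without low light column 2.

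Expansins, which loosen the cell wall, had the lowest median of the lists plotted by member (-1.03): 12 of 14 fell, 7 as DEGs. EXPA8 (AT2G40610) was at 22.2, 18.1, 19.7 and 14.5 TPM in normal light and at 3.11, 3.99, 2.77 and 2.59 TPM in low light (log2FC -2.57 ± 0.29, adjusted p = 2.54e-06). EXPB3 was at 154, 133, 130 and 116 TPM in normal light and at 44.7, 45.7, 40.7 and 38.5 TPM in low light. The most abundant, EXPA6, went from 296 ± 11.8 to 150 ± 10.8 TPM. Low light libraries lay below the normal light range for these 3 genes, against 56.2% of all genes tested whose groups did not overlap in either direction. Fasciclin-like arabinogalactan proteins, which sit on the outer face of the plasma membrane, fell in 11 of 17 cases (FLA15 from 9.99 to 2.57 TPM, FLA10 from 37.9 to 17.8 TPM). Other arabinogalactan proteins fell in 11 of 22 cases (7 without normal light column 3), AGP31 from 1095 to 753 TPM, and 2 rose. Xyloglucan endotransglucosylases went the other way, with 9 of 19 up and 3 down: TCH4 rose from 19.0 to 72.3 TPM, and XTH7 fell from 4.44 to 0.832 TPM.

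**Figure D3:**
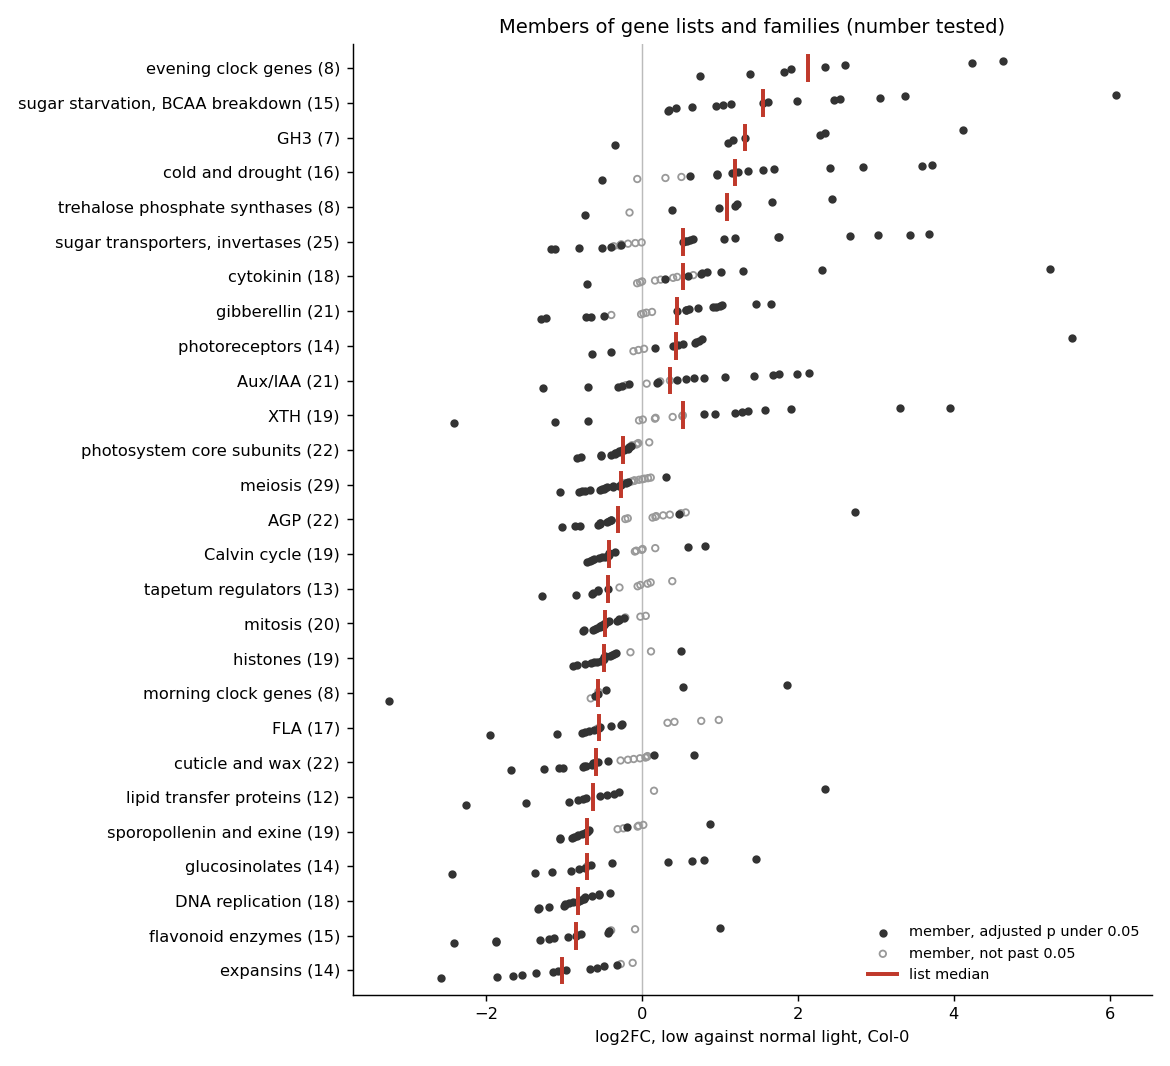
log2FC (low over normal light, Col-0) of each tested member of 27 gene lists and families, filled where the adjusted p was under 0.05, with the list median as a red bar and the number tested in brackets. All 8 evening clock genes and all 15 sugar starvation genes lie above 0, and all 18 DNA replication genes and all 14 expansins lie below 0.

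Auxin response genes moved in both directions. GH3 enzymes, which conjugate auxin to amino acids, rose in 6 of 7 cases, all 6 as DEGs. BRU6 (GH3.2) was at 7.86, 7.11, 8.33 and 12.2 TPM in normal light and at 176, 152, 143 and 144 TPM in low light, a log2FC of 4.11 ± 0.19 (adjusted p = 8.2e-10). GH3.3 went from 27.2 to 138 TPM and WES1 (GH3.5) from 45.8 to 224 TPM, whereas PBS3, a GH3 enzyme of salicylic acid synthesis, fell by 0.34 on the log2 scale, a call that was lost without low light column 4 (adjusted p = 0.0544) or normal light column 1 (adjusted p = 0.0608). Of 21 Aux/IAA repressors, which auxin both induces and degrades, 12 rose and 5 fell. IAA2 was at 5.44, 4.73, 6.23 and 6.02 TPM in normal light and at 25.9, 25.4, 24.4 and 23.7 TPM in low light. ATAUX2-11 (IAA4) rose by 1.75 ± 0.12, and AXR3 (IAA17) fell by 1.27 on the log2 scale. Of 28 SAUR genes, early auxin targets, 5 rose and 6 fell, and of 17 auxin response factors (ARF) 8 rose and 5 fell. The auxin synthesis and transport list had 6 up and 10 down of 19. The synthesis enzymes YUC2 and YUC6 rose from 3.20 to 12.8 and from 5.47 to 13.1 TPM.

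Cytokinin genes rose in 9 of 18 cases and fell in 1. CKX3, an oxidase that degrades cytokinin, was at 4.24, 1.73, 3.39 and 3.05 TPM in normal light and at 13.6, 18.9, 16.5 and 12.2 TPM in low light (log2FC 2.31 ± 0.25). The feedback regulators RR16 and ARR9 rose by 1.29 ± 0.14 and 1.01 ± 0.13. For gibberellin 11 of 21 rose and 5 fell. ATGA2OX1, which inactivates the hormone, went from 9.83 to 27.0 TPM. The receptors GID1A and GID1C rose by 0.56 ± 0.06 and 0.92 ± 0.09. GA20OX1, a late step of synthesis, fell by 1.29 on the log2 scale along with the DELLA repressors RGL1 and RGL2. In jasmonate synthesis LOX2 fell from 711 to 327 TPM and JMT, which methylates the hormone, from 19.3 to 7.13 TPM, while JAR1, which makes the active conjugate, rose from 33.7 to 76.8 TPM. AOC4 fell by 0.54 on the log2 scale, and the other 10 of 14 members did not pass. Of 11 JAZ repressors 5 rose (4 without normal light column 3), JAZ7 from 4.93 to 19.9 TPM, and none fell. Their summed level was 1170 TPM in low light column 2 against 658 to 792 TPM in the other low light libraries. The call of TIFY10B (log2FC 0.39) was lost without that column (log2FC 0.16, adjusted p = 0.15) and without normal light column 2 or 3.

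Cold and drought genes, among them those of hydrophilic protectants, rose in 12 of 16 cases and fell in 1, with 9 DEGs and a median log2FC of 1.195. LEA7 was at 12, 6.84, 14.6 and 8.71 TPM in normal light and at 169, 163, 105 and 121 TPM in low light (log2FC 3.72 ± 0.36). COR15B, which stabilizes chloroplast membranes in frost, was at 71.0, 68.8, 84.3 and 58.0 TPM in normal light and at 220, 197, 195 and 213 TPM in low light. These genes had no overlap, and LTI78 (RD29A) and KIN2 rose likewise, from 8.18 to 43.5 and from 538 to 1262 TPM. The heat shock list moved down, 5 of 8 falling and 2 rising, with HSFA2, the heat-induced activator, falling from 1.696 ± 0.676 to 0.204 ± 0.12 TPM.

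Surface lipid genes mostly fell. In the cuticle and wax list 13 of 22 fell and 2 rose, with 4 DEGs and a median log2FC of -0.59. CER4, the reductase that makes wax alcohols, was at 36.0, 32.7, 33.9 and 23 TPM in normal light and at 9.64, 9.71, 10.7 and 8.83 TPM in low light (log2FC -1.68 ± 0.11). The cutin hydroxylases CYP86A4 and CYP86A7 fell from 41.6 to 17.3 and from 52.0 to 24.8 TPM. Lipid transfer proteins fell in 10 of 12 cases, or 8 without normal light column 3. LTPG3 and LTPG4, which the study tabulates as higher in low light, were left out of this family. LTP6 was at 3294, 3426, 3703 and 3668 TPM in normal light and at 1738, 1850, 1941 and 1832 TPM in low light, and LTP4 went from 110 ± 29.3 to 22.9 ± 6.14 TPM. Of these 12 only LTP12, a tapetal member, rose, from 367, 472, 466 and 132 TPM in normal light to 1774, 1920, 2116 and 1464 TPM in low light (log2FC 2.35 ± 0.38).

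Salicylic acid defence genes fell more often than they rose. Of 15 tested, 8 fell and 2 rose, CBP60G (log2FC 1.02 ± 0.33) and SAG101 (0.51 ± 0.15). The call of CBP60G was lost without low light column 1 (adjusted p = 0.0627). ACD6, an ankyrin membrane protein of that pathway, was at 7.29, 9.53, 3.17 and 3.77 TPM in normal light and at 0.779 to 1.21 TPM in low light (log2FC -2.47 ± 0.40). The wall-associated kinase WAK1 fell from 28.7 to 9.10 TPM. The regulator SARD1 overlapped between groups (5.99, 5.9, 2.5 and 17.3 against 3.14, 0.893, 1.36 and 1.33 TPM; log2FC -2.26 ± 0.75, adjusted p = 0.017, and -1.499 with adjusted p = 0.0898 without normal light column 4). Glucosinolate genes fell in 8 of 14 cases and rose in 4. MYB28, which activates the aliphatic branch, went from 12.9 to 5.79 TPM, while the myrosinases TGG1 and TGG2, abundant in guard cells and myrosin cells, rose from 1169 to 1819 and from 1774 to 3072 TPM. Metal genes held 2 large single changes. FSD1 (AT4G25100), the iron superoxide dismutase made when copper is short, was at 24.9, 21.6, 63.5 and 50.9 TPM in normal light and at 2.78, 1.91, 1.31 and 6.41 TPM in low light (log2FC -3.70 ± 0.53, and -4.34 without low light column 4). IRT1, the iron importer of the root surface, was at 0.205, 1.14, 0.241 and 0 TPM in normal light and at 12.2, 7.597, 9.05 and 6.77 TPM in low light (4.49 ± 0.66, and 5.85 without normal light column 2). FER1, a ferritin that stores iron, rose from 124 to 320 TPM.

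Other large falls set by the naming rule lay outside the lists. BAM5, a beta-amylase of the phloem, was at 524, 366, 468 and 376 TPM in normal light and at 59.2, 125, 61.6 and 76.0 TPM in low light. ARD3, an acireductone dioxygenase of methionine salvage, went from 33.9 ± 15.5 to 2.92 ± 0.88 TPM, and the endoglucanase GH9B8 from 9.18 ± 1.97 to 1.71 ± 0.34 TPM. AT5G62210, annotated as embryo-specific protein 3, was at 225, 224, 221 and 190 TPM in normal light and at 39.6 to 49.4 TPM in low light, and had the smallest SE of the ranked genes (log2FC -2.29 ± 0.08, adjusted p = 1.83e-11). AT5G03350, a legume lectin family protein, fell from 148 ± 64.1 to 28.1 ± 6.17 TPM, and AT2G25510, an uncharacterized protein, from 231 ± 93.7 to 35.2 ± 6.89 TPM.

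In the anther, early tapetal and exine genes fell. The tapetum nourishes microspores and makes sporopollenin, the polymer of the outer pollen wall. Of 13 tapetum regulators 7 fell and none rose, with summed levels of 542 to 614 TPM in normal light and 407 to 444 TPM in low light. TDF1 (AT3G28470) was at 17.9, 22.2, 19.5 and 16.3 TPM in normal light and at 9.90, 6.64, 7.70 and 7.01 TPM in low light (log2FC -1.28 ± 0.17, adjusted p = 9.12e-06), and AMS fell from 226 to 144 TPM. Of 19 sporopollenin and exine genes 13 fell and 1 rose. DRL1 (AT4G35420), the reductase that completes sporopollenin precursors, was at 638, 641, 591 and 529 TPM in normal light and at 294, 301, 262 and 299 TPM in low light, and LAP5, a polyketide synthase, fell from 454 to 218 TPM. The regulator ARF17 rose from 25.4 to 46.5 TPM.

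Most of the largest rises were of genes close to 0 in normal light. Among 577 genes under 1 TPM in normal light 41.1% were DEGs that rose and 2.08% DEGs that fell, against 9.22% and 4.11% from 1 to 10 TPM, 2.5% and 1.6% from 10 to 100 TPM, and 2.55% and 3.62% over 100 TPM. A gene under 1 TPM passed the filter on low values mostly through its low light libraries, so its direction is partly set by the filter. AT4G17210, annotated as a weak chloroplast movement protein, was at 0 to 0.192 TPM in normal light and at 16.9, 14.5, 12.5 and 9.83 TPM in low light (log2FC 7.30 ± 0.34, adjusted p = 7.85e-10). AT2G18420, of the gibberellin-regulated (GASA) family, was at 0, 0.470, 1.32 and 0.151 TPM against 57.2, 65.0, 57.0 and 37.5 TPM. ENODL5 and ENODL6, early nodulin-like proteins of the plasma membrane, were at 0.271, 0.140, 2.11 and 0 and at 0.602, 1.402, 3.66 and 0.451 TPM in normal light, and at 46.4 to 95.5 and 80.5 to 142 TPM in low light. AT2G29880, a Myb/SANT-like protein, was at 0.113 to 0.820 TPM and at 16.4 to 24.8 TPM. The ranked genes were chosen without overlap between groups, which held for 56.2% of all genes tested. Without normal light column 3 the log2FC was 8.13 for AT4G17210, 7.97 for AT2G18420 (6.77 ± 0.65 with it), 8.82 for ENODL5 (6.72 ± 0.79), 7.11 for ENODL6 (6.20 ± 0.80) and 5.42 for AT2G29880 (5.43 ± 0.59). In the whole ENODL family, 8 of 15 members fell, none as a DEG, among them ENODL13 (123 to 63.7 TPM), ENODL14 and ENODL15. The 5 members that rose were all DEGs: ENODL5, ENODL6, ENODL1, ENODL16 and ENODL18.

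Pollen coat genes separated the normal light libraries from each other. The oleosin-like glycine-rich proteins are made in the tapetum and end up on the pollen surface. Of 5 tested members 4 rose, and their summed levels were 13.7, 70.2, 349 and 3.21 TPM in normal light columns 1 to 4 and 796, 1387, 1622 and 813 TPM in low light. GRP20 was at 1.44, 7.49, 65.6 and 0.287 TPM in normal light and at 172, 329, 364 and 182 TPM in low light. Its log2FC was 3.81 ± 1.06 (adjusted p = 0.00564) and 6.44 without column 3. GRP14 was at 0.194, 2.24, 29.3 and 0.097 TPM against 61.1, 111, 145 and 62.5 TPM (3.57 ± 0.86, and 6.83 without column 3). GRP16 was at 0 in 3 normal light libraries and at 22.0 TPM in column 3 against 7.34, 27.2, 28.9 and 18.7 TPM, which overlapped and did not pass (adjusted p = 0.151). Column 3 was the only normal light library above 20 TPM for each of these 3 genes. GRP18 rose from 7.70 to 67.2 TPM and GRP19 from 69.1 to 710 TPM (log2FC 3.37, and 5.26 without column 3). Without column 3 all 5 members rose, and the median log2FC was 6.44 in place of 3.37.

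Several ranked rises shared that pattern. AT1G23570 was at 0.129, 0.134, 16.2 and 0.0431 TPM in normal light and at 122, 228, 180 and 115 TPM in low light (log2FC 5.27 ± 1.08). Its neighbour AT1G23580 and the nearby AT1G23660 were each under 0.2 TPM in 3 normal light libraries and at 2.16 and 3.29 TPM in column 3. AT1G54860, annotated as a GPI-anchored glycoprotein, was under 0.1 TPM in 3 normal light libraries and at 1.80 TPM in column 3. AT1G23570 and AT1G23580 are neighbours with the same annotation, so their reads may be shared. Without column 3 the log2FC was 10.47 for AT1G23570, 9.18 for AT1G23580, 8.46 for AT1G23660 and 9.39 for AT1G54860, values that depend on the prior count because 3 normal light libraries were near 0. AT1G20130, a GDSL-type lipase, was at 4.56, 43.6, 63.3 and 0.642 TPM in normal light and at 876, 1077, 1031 and 567 TPM in low light (log2FC 5.00 ± 1.02, and 5.79 without column 3). XTH3 was at 0 to 0.118 TPM in columns 1, 2 and 4 and at 80.7 TPM in column 3, against 93.9 to 272 TPM in low light. The maturing pollen sum of column 3, 41.7 TPM against 17.5 to 20.5 TPM in the other normal light libraries, moved with these genes, and its part in their values was not tested.

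**Figure D4:**
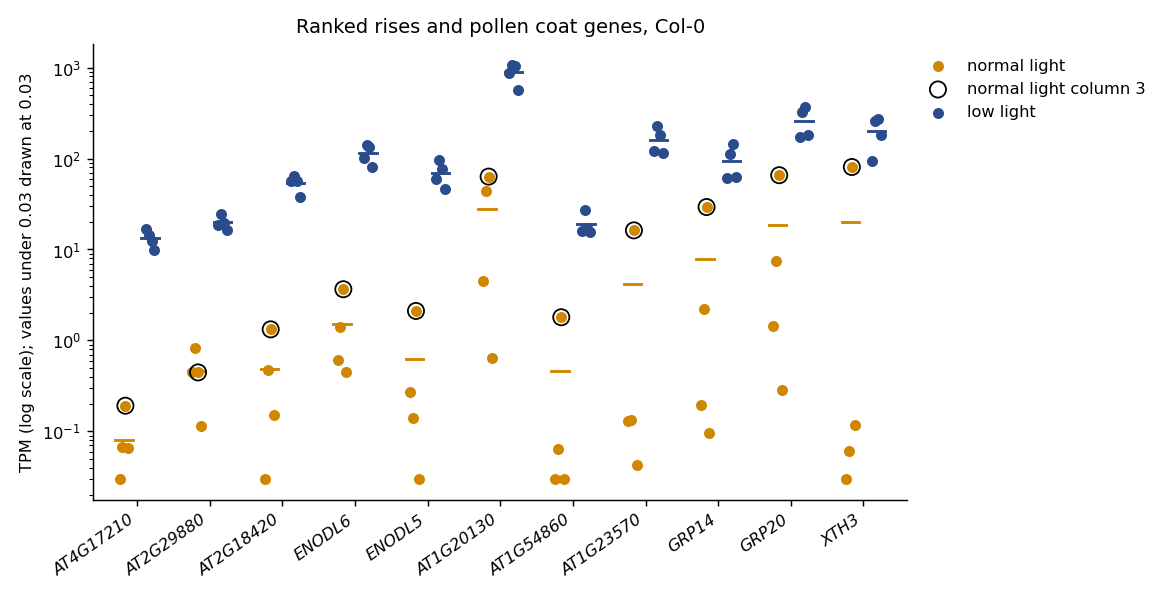
TPM on a log axis of 8 ranked rises and of GRP14, GRP20 and XTH3 in the 4 normal light and 4 low light Col-0 libraries, with values under 0.03 drawn at 0.03, group means as bars and normal light column 3 circled. Column 3 is the highest normal light library for 10 of the 11 genes, AT2G29880 being the exception, and lies below all low light libraries in each.

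Some smaller families outside these lists are given beside the background of 29.7% rising and 30.2% falling, and whether they differ from it was not tested. Of 8 RALF peptides 4 fell and none rose, and of 17 ERF factors 2 rose and 2 fell. Larger families moved in both directions. Of 114 cytochrome P450 genes 35 rose and 36 fell, of 63 MYB factors 14 rose and 21 fell, of 45 WRKY factors 15 rose and 10 fell, of 56 NAC factors 15 rose and 7 fell, and of 45 glycosyltransferases of the UGT family 12 rose and 11 fell.

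DEGs that lie side by side formed 13 runs of 3 or more neighbouring tested genes that rose (42 genes in all) and 4 that fell (12 genes), the longest holding 4. ELIP2, AT4G14695 and the replication gene ORC1A formed a falling run on chromosome 4, and LTP4, LTP3 and AT5G59305 another on chromosome 5. Rising runs included AT1G23560 to AT1G23580 and AT1G20120 to AT1G20132, which contain the ranked genes above.

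The same genes were then compared with their response in bhlh89,91. What sets a difference between the genotypes was not tested. bHLH89 (AT1G06170) and bHLH91 (AT2G31210) were at 45.9 ± 4.73 and 30.1 ± 3.57 TPM in Col-0 in normal light and still at 22.3 ± 2.57 and 22.8 ± 1.83 TPM in the mutant, so the counts do not show whether intact transcripts were left. The genotype by light interaction passed an adjusted p of 0.05 for 4920 genes (24.6%). It passed for all 18 DNA replication genes, 14 of 19 histones and 14 of 20 mitotic genes. The lists and the genes named from them were chosen with Col-0 results known, and the Col-0 libraries are part of the interaction. The interaction counts and values of lists and their members are therefore a description and not a test. In the mutant PCNA1 went from 62.3 ± 6.79 TPM under normal light to 59.0 ± 1.78 TPM under low light (n = 4 each), and the median log2FC of the replication list was -0.01 there against -0.82 in Col-0. The interaction of PCNA1 had an adjusted p of 5.13e-06 and that of MCM5, at 47.4 ± 3.65 and 47.0 ± 2.26 TPM in the mutant, the same value.

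Groups with few interactions were the trehalose phosphate synthases (0 of 8, median log2FC 0.73 in the mutant and 1.09 in Col-0), the Calvin cycle (1 of 19), sporopollenin and exine (1 of 19) and the flavonoid enzymes (2 of 15, median log2FC -0.999 in the mutant and -0.85 in Col-0). An interaction that did not pass does not show an equal response. AT2G33830 had a log2FC of 6.10 in the mutant, at 8.42 ± 3.00 and 574 ± 396 TPM, and 6.08 in Col-0, and LHY -3.31 and -3.24. The sugar starvation list had 7 of 15, with a median log2FC of 0.61 in the mutant and 1.55 in Col-0, and BCAT-2 had 1.26 in the mutant (interaction adjusted p = 0.000429). Aux/IAA repressors (12 of 21), glucosinolate genes (9 of 14) and sugar transporters (12 of 25) had larger shares, with STP2 at 27.4 ± 12.1 and 40.4 ± 11.4 TPM in the mutant and GH3.3 at a log2FC of -0.04. EXPA6, which fell in Col-0, had a log2FC of 0.05 in the mutant (interaction adjusted p = 1.15e-05). Pollen coat genes had high and variable normal light levels in the mutant: GRP14 stood at 30.1 ± 19.5 TPM under normal light against 22.5 ± 11.4 TPM under low light, and GRP20 at 42.4 ± 37.5 and 25.2 ± 19.6 TPM.

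**Figure D5:**
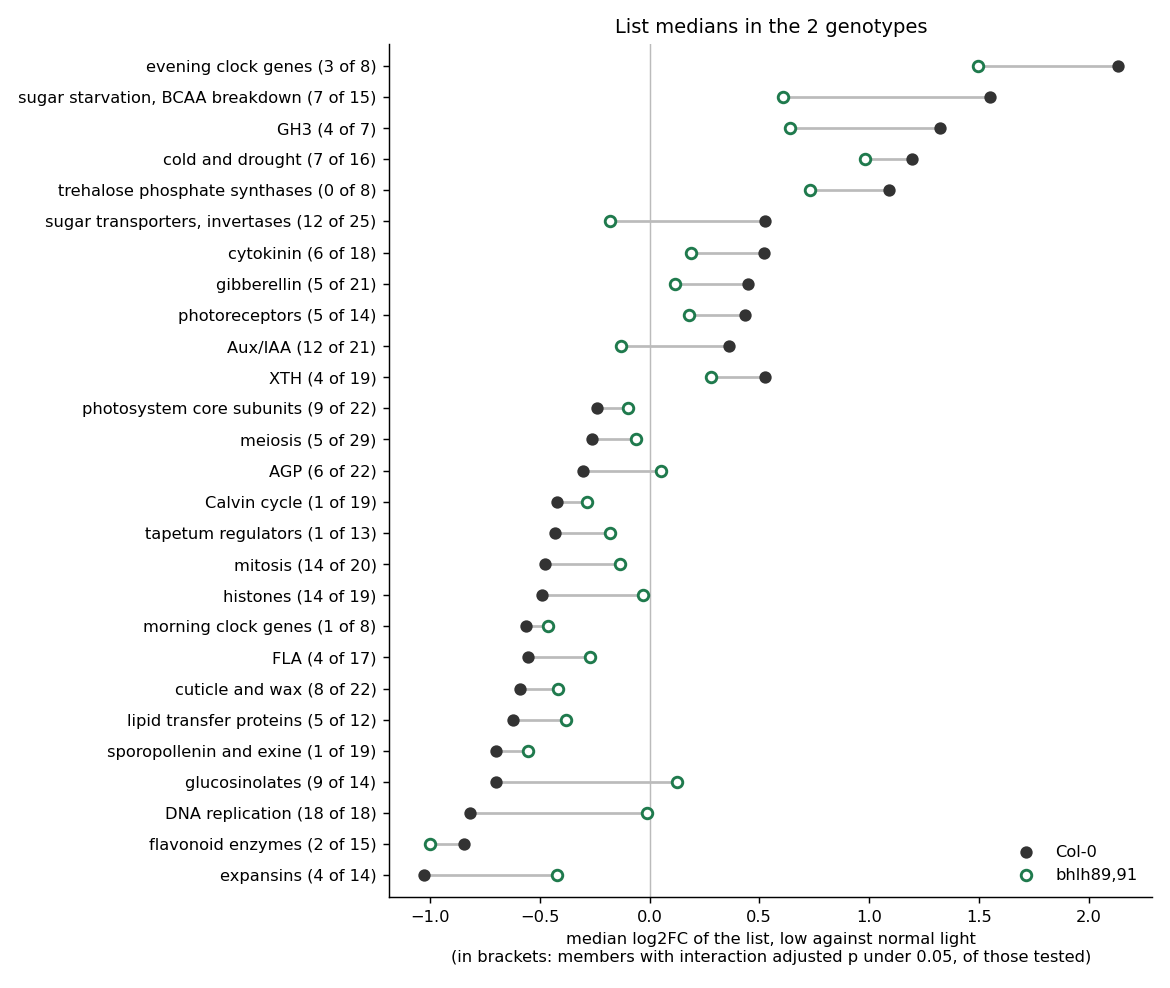
Median log2FC (low over normal light) of 27 gene lists in Col-0 (filled) and bhlh89,91 (open), with the number of members whose interaction adjusted p was under 0.05 and the number tested in brackets. The DNA replication median moves from -0.82 in Col-0 to -0.01 in the mutant, while that of the flavonoid enzymes is -0.85 and -0.999.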

How the data were processed

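RNA was sequenced from poly-A selected transcripts of Col-0 and bhlh89,91 flower buds. The authors quantified reads with Salmon against the AtRTD2 transcript annotation and summarized them with tximport to genes; they deposited estimated counts, scaled by transcript length, and TPM. The genome build is not given in the sources used here. Estimated counts were rounded to whole numbers, genes that reached 1 CPM in 4 or more Col-0 libraries were kept, and edgeR 4.0.16 (R 4.3.3) was run with TMM factors and the quasi-likelihood F test on all 16 libraries in 4 groups, with Benjamini-Hochberg adjustment. TPM values are the deposited ones. Libraries are named by their column numbers 1 to 4, which differ from the replicate numbers in the labels. The p-values rest on the spread between libraries of a group, pooled over the 4 groups. Whether the light treatments were repeated independently is not given in the sources used here. The fit was checked on simulated data.

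Members and lists were chosen with earlier results of these data known. Named genes were the 12 largest rises and 12 largest falls among DEGs averaging 5 CPM or more whose groups did not overlap, apart from 23 genes tabulated in the study, and up to 5 members of each list with the lowest adjusted p, with every member where 5 or fewer passed. The same 23 genes were left out of every list and family, and so of their counts and medians. Genes named in neighbour runs, and KIN1, GRP16 and XTH3, were chosen after their values were seen. Promoters, coordinates and annotations came from RefSeq (TAIR10.1). Alternatives were limma 3.58.1 voom and trend, DESeq2 1.42.0, other scalings, filters and thresholds, and leaving out each library.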

Additional observations from a re-analysis of the deposited data

Results flagged for a closer look

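Single libraries far from the other 3 of their group, by Dixon's ratio, were looked for in 130 groups over 65 genes, and 17 were found; chance gives about 1 in 20 in groups not chosen for their values. Several of the 65 genes, KIN1, GRP16 and XTH3 among them, were chosen after their values were seen, so the number found is not set against that share. Normal light column 3 accounted for 10. It stood at 35.7 TPM for KIN1 (others 3.06 to 5.63), 2.11 for ENODL5 (0 to 0.271), 16.2 for AT1G23570 (0.0431 to 0.134), 2.16 for AT1G23580 (0 to 0.0661), 3.29 for AT1G23660 (0 to 0.165), 1.80 for AT1G54860 (0 to 0.0632), 29.3 for GRP14, 65.6 for GRP20, 22.0 for GRP16 and 80.7 for XTH3. Normal light column 4 was apart for ASN1 (181 TPM against 116 to 125), STP1 (72.8 against 48.1 to 50.1) and AT5G62210 (190 against 221 to 225). The others were CCA1 in normal light column 1 (17.1 against 11.6 to 11.8), PRR5 in low light column 4 (79.5 against 65.9 to 66.9), DRL1 (AT4G35420) in low light column 3 (262 against 294 to 301) and AT1G54860 in low light column 2 (26.9 against 15.7 to 17.3).

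The light response differed between genotypes, by the interaction term of edgeR, for 17 of the 24 genes with the largest changes. The interaction passed for 24.6% of all genes tested. The 24 genes were ranked on their Col-0 change, which is part of the interaction, so their count is a description and not a test. The difference (log2FC in bhlh89,91 minus log2FC in Col-0) was negative for 10 rises: AT4G17210 (-4.54, adjusted p = 0.0148), AT2G18420 (-5.77, 0.00151), ENODL5 (-4.57, 0.0147), ENODL6 (-4.85, 0.00415), FKF1 (-1.4, 0.00185), AT2G29880 (-4.70, 0.000643), AT1G23570 (-6.12, 0.0146), AT1G23660 (-5.21, 0.024), AT1G20130 (-6.23, 0.00349) and AT1G23580 (-6.97, 0.00329). Of the falls it was positive for ARD3 (1.64, 0.0191), EXPA8 (2.2, 0.000991), BAM5 (1.37, 0.00457), GH9B8 (0.82, 0.0316), AT5G03350 (1.26, 0.0276) and AT5G62210 (0.92, 5.33e-05), and negative for ACD6 (-2.33, 0.0187), whose fall was larger in the mutant.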

How the results depend on the processing

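The count of 1619 DEGs was 1511 to 1652 when 1 library was left out (1049 to 1171 higher, 462 to 519 lower), 1661 with DESeq2 and 1648 with limma-voom. Without a fold limit it was 9449 (4735 higher, 4714 lower), and limma-trend on log2(TPM + 1) gave 318 DEGs lower. Flavonoid regulators that fell numbered 8 with 1 CPM in 1 of 16 libraries and with no filter, against 5. Floral organ identity genes that rose numbered 2 with library size alone and 2 to 5 without 1 library, against 6. Tapetum and anther cell death genes that fell numbered 1 with limma-voom and 1 to 4 without 1 library, against 3. Leaving out 1 library gave 7 to 11 arabinogalactan proteins and 4 to 7 meristem genes that fell. The cause was not tested. Of 445 named genes none changed direction, 28 lost their call when 1 library was left out, and 15 lost it under another setting, SARD1 among them with limma-voom. No paired analysis was possible because the columns do not carry the labels' replicate numbers.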
